A study of Mus musculus with 2 samples.

Results

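A set of 10 genes of antioxidant defence and heme breakdown was followed through the cells of the mouse fetal liver at E12.5. They are Prdx1, Prdx2, Cat, Gpx1, Gpx4, Sod1, Blvrb, Blvra, Hmox1 and Glrx5. The genes were taken by symbol, 10 of the 27998 genes in the count tables. The material was a cell suspension of 1 wild type C57BL/6 liver (C57BL/6J in the study's methods), sorted by flow cytometry to remove debris, dead cells and doublets, and 2 technical replicate libraries were made from it and sequenced by the 10x 3' method, in which a unique molecular identifier (UMI) counts each captured mRNA once. Every cell therefore carries the same genotype, strain and age, no treatment was given, and the groups compared are cell types. The cell types and their subclusters are those of the deposited cell table, 9 types in all, made by clustering these same cells, so that every difference between groups below is a description of 1 liver with no test and no p-value.

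Erythroid cells are the early Ery cells (subclusters Ery 1 and Ery 2; 932 cells in library 1 and 818 in library 2) together with the later Eryb cells (Ery 3 to Ery 6; 3820 and 3612 cells), and the primitive, yolk sac derived EryP cells (170 and 118) were kept apart. The contrast groups are Mo/KC, monocytes and Kupffer cells held in 1 cluster (56 and 58 cells), and Hepa, the hepatoblasts and hepatocytes (33 and 31 cells). HPSC are the stem and progenitor cells, Mk megakaryocytes, G granulocyte lineage cells and EC endothelial cells. All levels are UMIs summed over the cells of a group, as counts per 1000000 UMIs of that group (CPM), given for library 1 and then library 2 unless said otherwise. The libraries held 51969226 and 62738015 UMIs in 5480 and 5057 cells, with medians of 6261 and 9774 UMIs per cell, and 31 cell barcodes occurred in both. The globins took 19.6% and 36.6% of these UMIs, and 58.1% and 78.5% in Ery 6, which leaves a smaller share of UMIs for all other genes in the late erythroid cells of library 2. The globin share was 76.7% and 82.5% in EryP and 36.7% and 59.2% in Eryb. CPM of all other genes is thus lowered most in EryP, also in the orders of cell types below. Values without globin UMIs or per cell are therefore added for some contrasts and the erythroid subclusters, but not for those orders. Of the defining markers, Klf1, Tfrc and Hbb-bs were highest in erythroid cells in both libraries, as were 5 of 5 Hepa and 10 of 11 Mo/KC genes in their own types, Vcam1 being the exception among the last.

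Red cell precursors load themselves with iron, heme and oxygen-binding globin, a mixture that readily yields superoxide and hydrogen peroxide. Superoxide dismutase (Sod1) turns superoxide into hydrogen peroxide, and catalase (Cat), the peroxiredoxins (Prdx1, Prdx2) and glutathione peroxidases (Gpx1 and, for lipid peroxides, Gpx4) remove it. Macrophages of the fetal liver take up the nuclei that erythroblasts expel and degrade heme. In heme breakdown, heme oxygenase (Hmox1) opens the heme ring, giving iron, carbon monoxide and biliverdin, and biliverdin reductase A (Blvra) reduces biliverdin to bilirubin. Biliverdin reductase B (Blvrb) is a flavin reductase that acts on the fetal biliverdin isomer. Glrx5 is a mitochondrial glutaredoxin that hands on iron-sulfur clusters and is needed for heme synthesis in red cell precursors.

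Of the 10 genes, 9 have a RefSeq promoter window on GRCm38.p6, 250 bases before to 50 bases after the start. The core of the antioxidant response element, TGACNNNGC on either strand, was found in 3 of these 9 genes, Prdx1, Sod1 and Blvra, and in 12.4% of all 32851 windows. CCNCNCCC, the CACCC-type motif, was found in 7 of the 9 and in 49.5% of all windows, while the GATA motif, searched as AGATAA, was in none of the 9 and in 11.2% of all. Gpx4 and Blvrb have several windows, and a gene was counted if any window matched, so shares of genes and of windows differ in unit. The CACCC-type pattern also takes in matches such as CCCCGCCC that lack the letters CACCC. Matches of one motif may overlap each other, and a match is no evidence of binding. Below stand the bases before the first annotated exon of the peroxide-removing enzymes Prdx1 and Cat and of the pair Blvrb and Blvra. By CPM, Prdx1 was lower and Cat higher in the last erythroid subcluster, Ery 6, than in Ery 1. Of all genes tested there, 75.4% were lower and 6.65% higher. The call of Prdx1 is lost without globin UMIs and that of Cat by UMIs per cell. Capitals mark the antioxidant core in Prdx1, 133 bases before the start (GCTGAGTCA), and in Blvra, 49 bases before it (GCTCGGTCA), and the CACCC-type matches that lie whole within the bases shown of Prdx1, Cat and Blvrb, those of Prdx1 at 106 and 101 bases and of Cat at 31 and 26 bases before the start overlapping each other.
Prdx1, chr4:116685349-116685543, plus strand: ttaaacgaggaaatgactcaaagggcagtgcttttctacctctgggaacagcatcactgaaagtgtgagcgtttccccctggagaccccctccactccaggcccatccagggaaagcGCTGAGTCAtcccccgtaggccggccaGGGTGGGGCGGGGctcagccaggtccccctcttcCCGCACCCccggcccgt
Cat, chr2:103485161-103485403, minus strand: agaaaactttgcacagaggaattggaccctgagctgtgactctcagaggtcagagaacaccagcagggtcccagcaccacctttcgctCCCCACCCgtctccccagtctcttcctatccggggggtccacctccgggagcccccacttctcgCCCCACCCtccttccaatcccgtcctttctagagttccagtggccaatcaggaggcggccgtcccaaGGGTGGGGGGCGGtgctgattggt
Blvrb, chr7:27447728-27447977, plus strand: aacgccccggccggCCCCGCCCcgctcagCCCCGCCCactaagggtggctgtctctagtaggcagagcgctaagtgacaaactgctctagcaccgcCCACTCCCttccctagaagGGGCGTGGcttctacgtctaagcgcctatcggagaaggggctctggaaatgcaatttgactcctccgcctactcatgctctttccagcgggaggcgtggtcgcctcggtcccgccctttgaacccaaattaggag
Blvra, chr2:127070407-127070656, plus strand: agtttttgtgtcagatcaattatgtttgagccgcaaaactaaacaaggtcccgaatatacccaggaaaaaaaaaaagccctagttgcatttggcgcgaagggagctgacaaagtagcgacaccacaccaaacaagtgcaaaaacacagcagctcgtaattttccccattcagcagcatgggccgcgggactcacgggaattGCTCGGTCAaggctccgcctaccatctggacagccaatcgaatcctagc

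**Figure D1:**
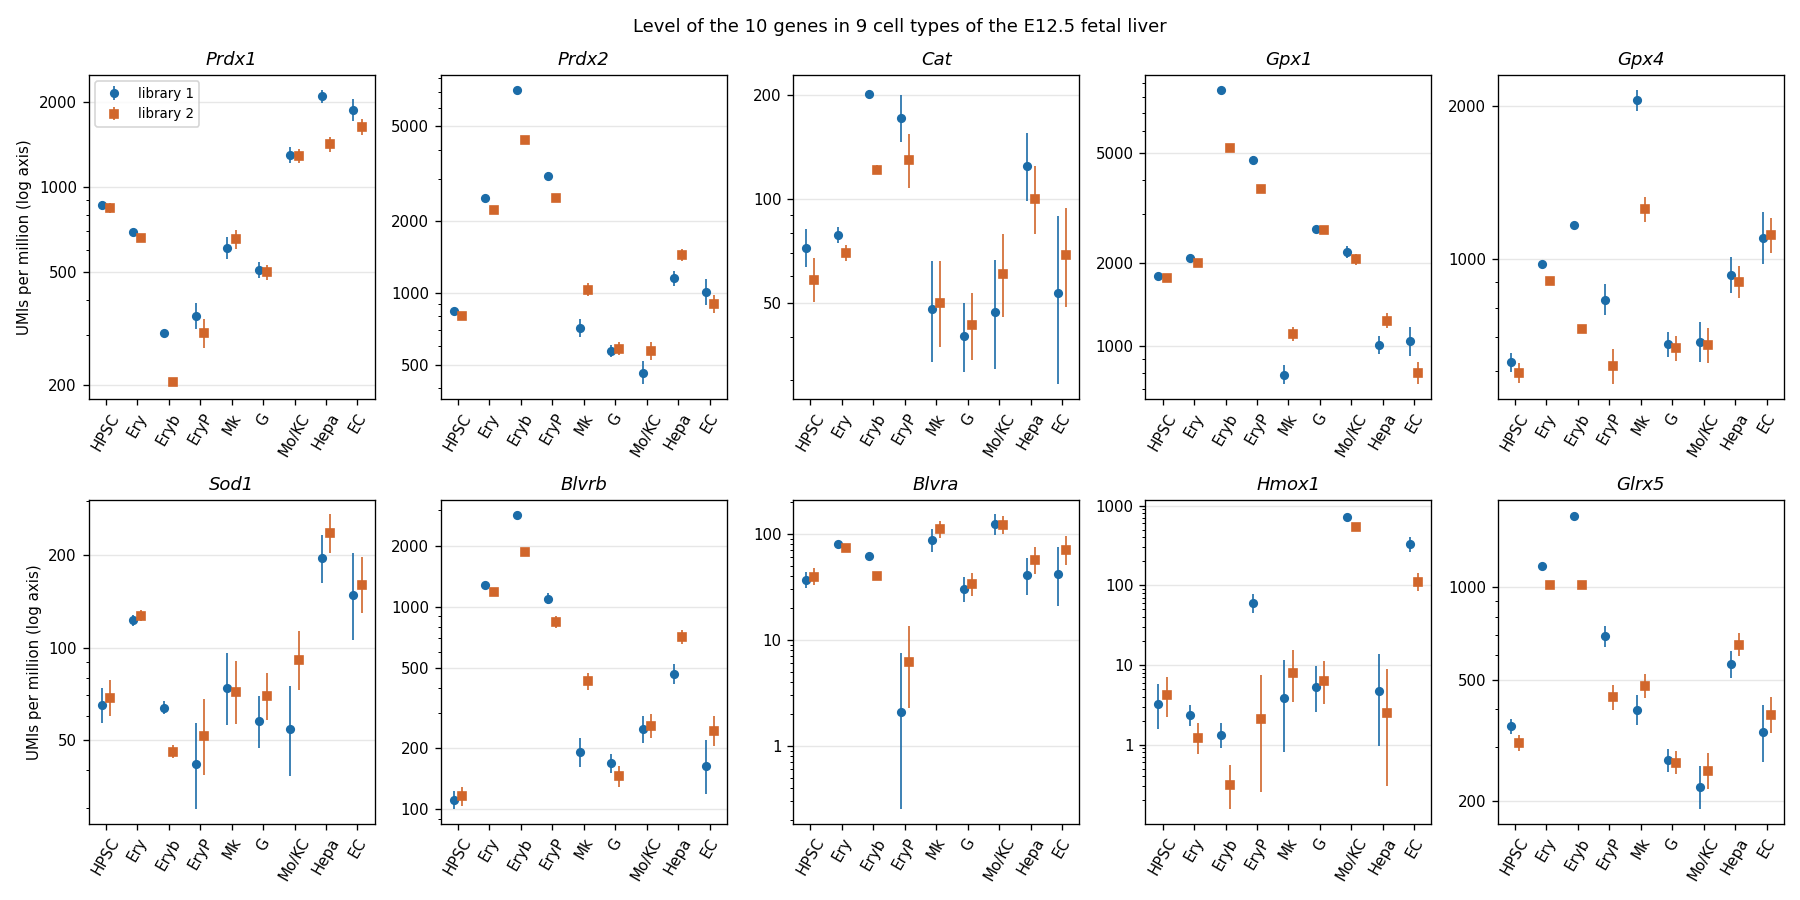
Level of each of the 10 genes (CPM, log axis) in the 9 cell types, 1 point per library with exact 95% Poisson intervals. With globin UMIs included, Prdx2, Gpx1 and Blvrb stand highest in Eryb, Prdx1 in Hepa and EC and Gpx4 in Mk. Hmox1 stands highest in Mo/KC at 710 and 540, against at most 2.36 in Ery and Eryb.

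The antioxidant and heme genes divided between erythroid cells and Mo/KC. Prdx2, Gpx1, Blvrb and Glrx5 were higher in erythroid cells, Prdx1 and Hmox1 were lower, and Cat, Gpx4, Sod1 and Blvra were neither, a gene being counted where its ratio reached 2-fold in the same direction in both libraries and the mean of the groups was at least 20 CPM in each. All 10 genes passed the floor on CPM in this contrast. Hmox1 passed only through Mo/KC, at 710 and 540 CPM against 1.78 and 0.617 in erythroid cells, so its lower call was fixed once it passed. This holds for any gene near 0 in 1 of the groups compared, here and in the lists below. The calls are 4 higher genes where 6.9% of the 4258 genes tested were higher, and 2 lower genes, Hmox1 being 1 of them, where 24.4% of all were lower. The median log2 ratio of the 10 genes was 1.04 and 0.50, beside -0.17 and -0.62 over all genes tested. Against Hepa, Prdx2, Gpx1 and Blvrb were higher and Prdx1 and Sod1 lower, that is 3 higher genes where 6.64% of the 3944 genes tested were higher and 2 lower where 18.1% of all were lower. Hmox1 fell under the floor of 20 CPM here and 9 genes remained, with a median log2 ratio of 0.79 and 0.06 beside -0.03 and -0.46 over all genes tested. All 3 higher calls against Hepa are lost by UMIs per cell, where the ratio was 2.06 and 1.17 for Prdx2, 2.63 and 1.54 for Gpx1 and 2.17 and 1.06 for Blvrb. They are lost too with Ery cells alone, at 2.17 and 1.54 for Prdx2, 2.06 and 1.61 for Gpx1 and 2.75 and 1.66 for Blvrb. Without globin UMIs Sod1 stood at 0.575 and 0.500 of Hepa and was not counted as lower. The contrasts share the erythroid cells, so they are not separate evidence of each other.

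**Figure D2:**
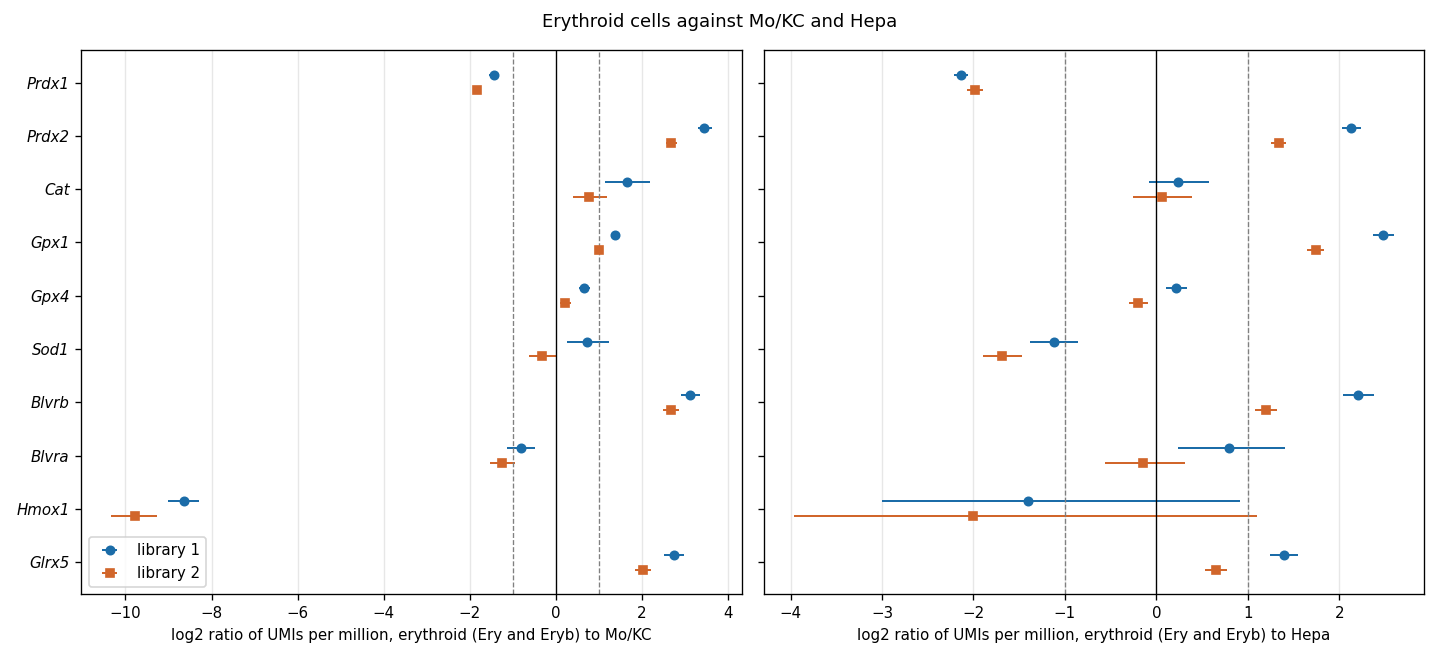
Log2 ratio of erythroid CPM to Mo/KC CPM and to Hepa CPM for each gene and library, with exact 95% counting intervals and lines at 2-fold. The panels have different horizontal ranges, since the log2 ratio of Hmox1 to Mo/KC lies far below that of the other genes, 400-fold lower in library 1 and 875-fold lower in library 2.

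Prdx2 and Prdx1 are cytosolic peroxiredoxins of the same class, and they took opposite places in the contrasts of erythroid cells with Mo/KC and Hepa. Prdx2 (chromosome 8, 84969587 to 84974834, plus strand; all positions are from GENCODE vM21 on GRCm38) reached 5082 and 3672 CPM in erythroid cells against 466 and 574 in Mo/KC. This is 10.9-fold (95% counting interval 9.77 to 12.2) in library 1 and 6.40-fold (5.87 to 7.0) in library 2. In Hepa it stood at 1157 and 1454 CPM, below erythroid cells by 4.39-fold and 2.52-fold. By CPM with globin UMIs, Eryb was first of the cell types at 7103 and 4399, then EryP at 3098 and 2515. Ery at 2509 and 2239 and then Hepa followed. Each of these was separated from the next by the range over the libraries, EryP from Ery by little. Globins took 76.7% and 82.5% of EryP UMIs, so the lead of Eryb over EryP depends on the scale. EC, Mk and HPSC followed at 718 to 1036 CPM with overlapping ranges, and G and Mo/KC came last at 466 to 587.

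Prdx1 (chromosome 4, 116685544 to 116700822, plus strand) was low in erythroid cells, but its order over all types was not the reverse of that of Prdx2. It reached 2104 and 1419 CPM in Hepa and 1885 and 1632 in EC, which overlap. Then came Mo/KC at 1304 and 1289, HPSC at 864 and 846 and Ery at 697 and 662. Mk at 610 and 656 and G at 510 and 501 stood in the lower part, as they did for Prdx2. EryP at 351 and 304 and Eryb at 306 and 206 came last by CPM and overlap. The place of EryP depends on the scale, since globins took 76.7% and 82.5% of its UMIs. The erythroid level of 478 and 359 CPM was 2.73-fold and 3.59-fold below Mo/KC and 4.40-fold and 3.95-fold below Hepa. A UMI of the 3' method is counted once per molecule whatever the transcript's length, although capture may differ between genes, so the ratio of Prdx2 to Prdx1 UMIs can be followed over the groups without the globin load. HPSC held 0.973 and 0.946 Prdx2 UMIs per Prdx1 UMI, Mo/KC 0.357 and 0.445, Ery 1 2.28 and 2.28, Ery 2 5.07 and 4.62, Ery 3 11.0 and 9.27, Ery 4 27.4 and 24.0, Ery 5 62.8 and 64.0, and Ery 6 51.9 and 49.3. The intervals of the libraries overlapped in Ery 1, Ery 5 and Ery 6 and did not overlap in Ery 2, Ery 3 and Ery 4.

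**Figure D3:**
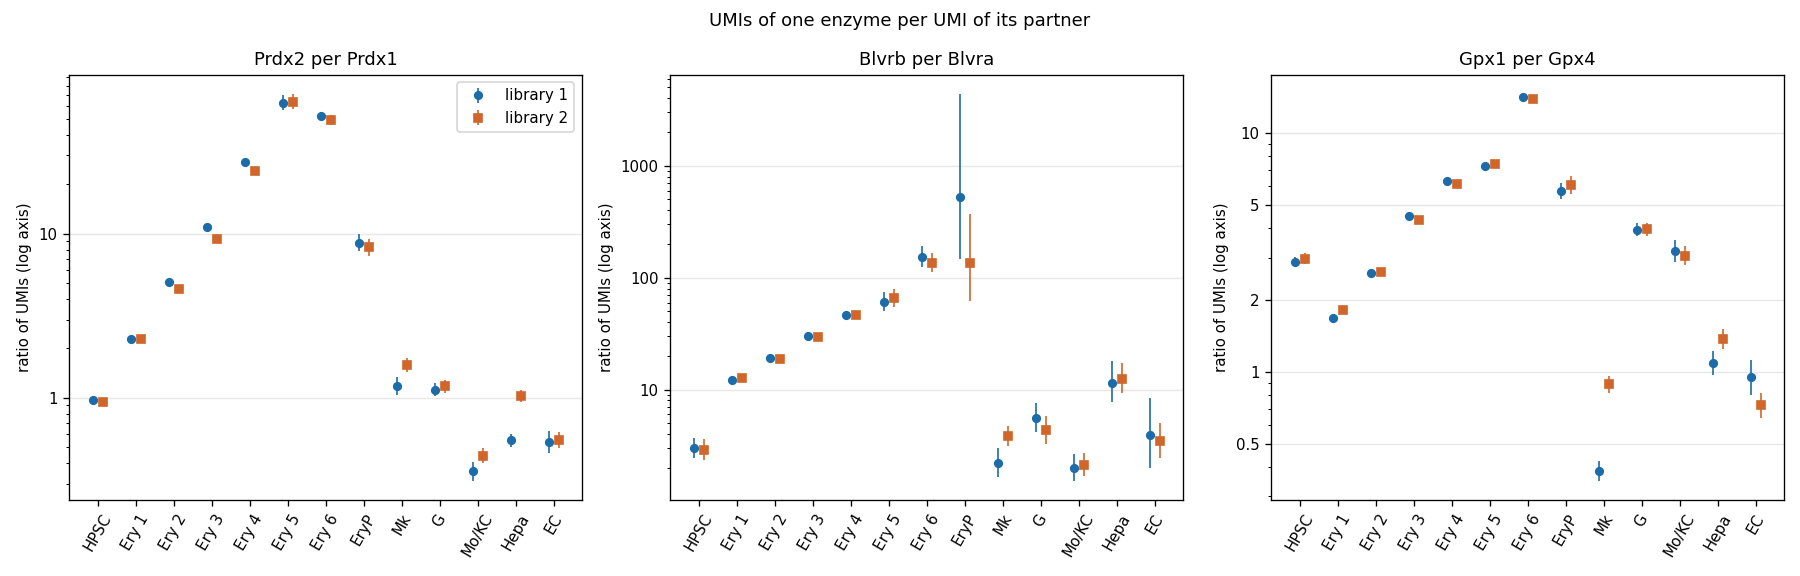
UMIs of one enzyme per UMI of its partner (log axis) in the cell types and in Ery 1 to Ery 6, 1 point per library, with exact 95% counting intervals. Prdx2 per Prdx1, Blvrb per Blvra and Gpx1 per Gpx4 each stand higher in Ery 6 than in Ery 1, at 51.9 and 49.3, 154 and 136, and 14.1 and 13.8.

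Gpx1 (chromosome 9, 108338903 to 108340343, plus strand) was the most abundant of the 10 in erythroid cells by CPM, at 5652 and 4132, against 2195 and 2062 in Mo/KC and 1011 and 1236 in Hepa. The ratio to Mo/KC was 2.57 (2.45 to 2.71) and 2.00 (1.91 to 2.1), so library 2 sits on the threshold. The difference came from the later cells, since Ery held 2079 and 1995 CPM, overlapping the range of Mo/KC, while Eryb held 8458 and 5216. Against Hepa the ratio was 5.59 and 3.34. After Eryb and EryP, G came next among the types at 2660 and 2627.

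Gpx4 (chromosome 10, 80047166 to 80056439, plus strand), which repairs oxidised membrane lipids, was not higher or lower in erythroid cells in either contrast, at 1082 and 785 CPM against 685 and 674 in Mo/KC and 929 and 900 in Hepa. Its highest level was in Mk, 2053 and 1251 CPM, separated from EC at 1099 and 1112. Mk was also the type with the fewest Gpx1 UMIs per Gpx4 UMI in library 1, 0.385, with EC lower in library 2 at 0.722 beside 0.886 in Mk. In Eryb the same ratio was 7.25 and 7.20.

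Cat (chromosome 2, 103453849 to 103485160, minus strand) was scarce beside the peroxidases, with 147 and 104 CPM in erythroid cells, 47.1 and 61.0 in Mo/KC and 125 and 100 in Hepa. Its ratio to Mo/KC was 3.13 (2.21 to 4.58) in library 1 and 1.71 (1.31 to 2.28) in library 2, so it was counted as neither. Without globin UMIs the ratio was 3.94 and 2.78, and on that scale it would have been counted as higher. Eryb at 201 and 122 CPM and EryP at 171 and 129 overlapped at the top of the order.

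Sod1 (chromosome 16, 90220754 to 90226329, plus strand) had its highest level in Hepa, 195 and 236 CPM, then EC at 149 and 161 and Ery at 123 and 127. The erythroid level of 89.8 and 73.3 CPM was 2.18-fold and 3.22-fold below Hepa. Against 54.5 and 91.5 in Mo/KC the libraries pointed different ways, with ratios of 1.65 and 0.801. Prdx2, Prdx1, Gpx4 and Sod1 have near-identical copies of their 3' end in the annotation, 6 pseudogenes in all that the count table does not list, and Prdx2 and Sod1 overlap genes on the other strand, so reads of such loci may have been added or lost.

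Hmox1 (chromosome 8, 75093621 to 75100589, plus strand) was nearly absent from Ery and Eryb and highest in Mo/KC. Mo/KC held 482 and 478 of its UMIs, 710 (648 to 777) and 540 (493 to 591) CPM. Erythroid cells, with 43319571 and 53475552 UMIs in all, held 77 and 33, or 1.78 and 0.617 CPM. Erythroid cells were therefore 400-fold (314 to 515) and 875-fold (614 to 1286) below Mo/KC, and the highest level of any Ery subcluster was 2.50 CPM, in Ery 2 of library 1. With each cell thinned to 3600 UMIs, 14 of 46 and 21 of 58 Mo/KC cells showed a Hmox1 UMI, against 6 of 777 and 4 of 818 Ery cells. Before thinning these were 35 of 56 and 28 of 58 Mo/KC cells and 29 of 932 and 19 of 818 Ery cells, at median depths of 12888 and 15242 UMIs in Mo/KC and 22587 and 23237 in Ery. In Hepa 3 and 2 UMIs were found, 4.69 and 2.47 CPM. The erythroid levels lie at or under these, and whether they are background was not tested. In library 1, 11 of the 45 Ery UMIs lay in 1 cell that also held 6 UMIs of the macrophage C1q genes. Of the 3 Hepa UMIs of library 1, 2 lay in 1 cell with 2 such UMIs.

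Hmox1 UMIs were unevenly spread over cells, which the counting intervals do not cover. In Mo/KC the richest cell held 143 of the 482 UMIs of library 1 and 69 of the 478 of library 2, and without these cells the level was 512 and 468 CPM. EC came second with 328 and 111 CPM. In library 1, 51 of its 86 UMIs lay in 1 EC cell that also held 23 UMIs of the C1q genes, which mark macrophages, and without this cell the EC level was 148 CPM. In library 2 the EC level was 104 CPM without the richest cell.

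Blvrb (chromosome 7, 27447978 to 27466144, plus strand) was highest in erythroid cells by CPM with globin UMIs. It stood at 2162 and 1636 CPM there, against 249 and 259 in Mo/KC and 467 and 712 in Hepa. The ratio was 8.68 (7.46 to 10.2) and 6.33 (5.56 to 7.23) to Mo/KC and 4.63 (4.13 to 5.20) and 2.30 (2.12 to 2.50) to Hepa. Against the Mo/KC cells with at least 2 UMIs of the macrophage C1q genes and at most 1 of Klf1, described further on, the ratio was 3.97 and 1.90, so the call is lost in library 2. HPSC had the lowest level, 111 and 116 CPM, against 1286 and 1185 in Ery. Blvra (chromosome 2, 127070665 to 127097084, plus strand) was highest in Mo/KC, at 124 and 122 CPM, separated from Mk at 87.0 and 111 and from Ery at 80.0 and 73.8. Its erythroid level of 70.2 and 51.5 CPM was 1.76-fold and 2.37-fold below Mo/KC, past 2-fold in library 2 only. EryP almost lacked Blvra, with 2 and 6 UMIs in all, 2.09 and 6.21 CPM, while it held 1101 and 844 CPM of Blvrb. Mo/KC had 2.01 and 2.12 Blvrb UMIs per Blvra UMI, Ery 1 12.1 and 12.7, and Ery 6 154 and 136.

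Glrx5 (chromosome 12, 105032688 to 105042906, plus strand) was at 1477 and 1022 CPM in erythroid cells and was lowest of all types in Mo/KC, at 222 and 252. The ratio to Mo/KC was 6.64 (5.66 to 7.84) and 4.06 (3.56 to 4.65). Against Hepa, at 561 and 651 CPM, the ratio was 2.63 in library 1 and 1.57 in library 2, and it was counted as neither. Ery and Eryb overlapped, at 1172 and 1022 CPM in Ery and 1716 and 1022 in Eryb. Ery held 3.33-fold and 3.30-fold more than HPSC.

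Erythroid marker RNA was also found in Mo/KC and Hepa cells. Hbb-bs, an adult beta globin gene, stood at 4736 and 15291 CPM in Mo/KC and 7719 and 17333 in Hepa, against 165599 and 238623 in Eryb. Tfrc, the transferrin receptor, stood at 33.9 and 36.1 CPM in Mo/KC and 54.7 and 81.5 in Hepa, against 483 and 285 in Eryb, while the 11 Mo/KC markers summed to at most 30.7 and 14.6 CPM in Ery or Eryb. If all Hbb-bs of Mo/KC were free RNA of the composition seen in barcodes with 1 to 50 UMIs, that RNA would make up 5.33% and 9.13% of Mo/KC UMIs and give 43.0% and 49.3% of the Prdx2, 32.6% and 45.8% of the Blvrb and 29.6% and 38.2% of the Glrx5 found there. It would give 0.213% and 0.345% of the Hmox1. If all Hbb-bs of HPSC were such RNA, it would give 104% and 74.2% of the Blvrb there, which is an upper limit. The HPSC level of Blvrb may thus be background in part or in full, which was not tested. Free RNA was also taken away at its largest share, from Mo/KC and Hepa alone. This ended no call, but it could not have ended one. Beside those groups, the free RNA held more of the genes called higher and less of those called lower.

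Klf1, an erythroid transcription factor, was also found in cells of the contrast groups. At least 2 Klf1 UMIs were found in 1 of 56 and 8 of 58 Mo/KC cells and in 9 of 33 and 18 of 31 Hepa cells. Cells were not thinned for this cut, so deeper cells pass it more easily. Those 9 and 18 Hepa cells held 285828 and 530262 UMIs in all, and the 24 and 13 others 354408 and 279697. Klf1 was also in the free RNA, at 443 and 338 CPM. In Hepa with at most 1 Klf1 UMI (24 and 13 cells), a split made after the data were seen, Prdx2 stood at 567 and 808 CPM, Gpx1 at 480 and 540, Blvrb at 116 and 282 and Glrx5 at 339 and 408. The other Hepa cells had 1889 and 1795 CPM of Prdx2, 1669 and 1603 of Gpx1 and 903 and 939 of Blvrb, with Alb, the hepatocyte albumin gene, at 8124 and 6333 CPM against 16202 and 13901 in the cells with at most 1 Klf1 UMI. Against the cells with at most 1 Klf1 UMI, erythroid cells had 18.7-fold and 5.79-fold more Blvrb. Glrx5 was then also counted as higher, at 4.36-fold and 2.51-fold. Klf1 was the gene that ran most like Glrx5 (0.98). Leaving out cells by Klf1 thus favours lower levels of such genes in Hepa, and the gained call is no support. Prdx1 was higher in the Hepa cells with at most 1 Klf1 UMI than in all Hepa, at 2542 and 1931 CPM. The part of cell mixing in these values was not tested.

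Within Mo/KC the heme breakdown genes went with C1qa, C1qb and C1qc, complement genes of macrophages. After thinning to 3600 UMIs, 17 and 16 cells held at least 2 C1q UMIs and 29 and 42 held 0 or 1. Hmox1 stood at 1697 and 2352 CPM in the cells with C1q and at 39.5 and 112 in the others, a ratio of 43.0 (26.8 to 73.4) and 21.1 (16.5 to 27.1). Blvrb stood at 545 and 951 CPM against 96.5 and 94.9, and Blvra at 190 and 266 against 83.3 and 88.0. Each of these 3 genes was thus higher in the cells with C1q in both libraries. The share of all genes that differ by C1q is not given, so these values do not set the 3 genes apart from others. Slc40a1, the iron exporter ferroportin, which was chosen after its values were seen, stood at 535 and 810 CPM against 2.19 and 15.4, and Lyz2, a lysozyme gene of myeloid cells, went the other way at 929 and 1968 against 14198 and 9528.

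**Figure D4:**
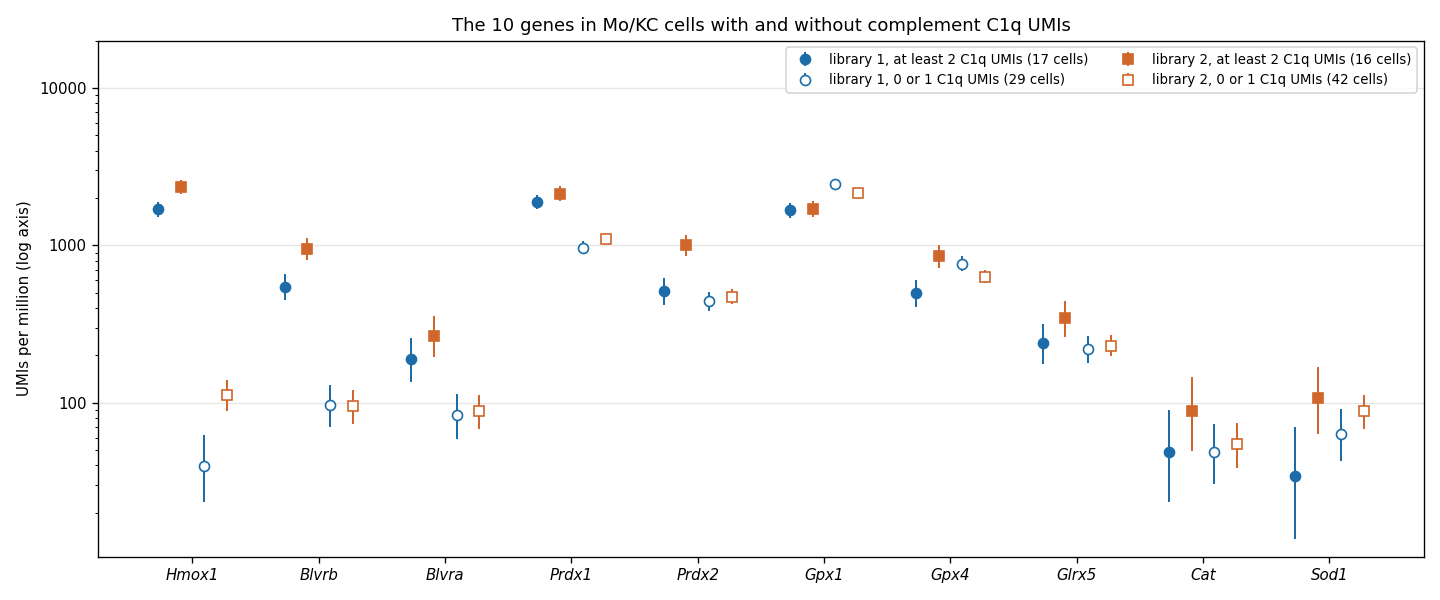
Level of the 10 genes (CPM, log axis) in Mo/KC cells with at least 2 and with 0 or 1 C1q UMIs after thinning, per library, with exact 95% Poisson intervals. Hmox1, Blvrb and Blvra stand above in the cells with C1q in both libraries, Hmox1 at 1697 and 2352 against 39.5 and 112, while Gpx1 stands below at 1673 and 1708 against 2450 and 2146.

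The antioxidant genes of Mo/KC differed less by C1q. Prdx1 was at 1896 and 2133 CPM in the cells with C1q against 965 and 1089, a ratio of 1.97 and 1.96. Gpx1 was lower with C1q, with a ratio of 0.683 and 0.796. Gpx4 pointed different ways, at 0.648 and 1.35. Prdx2 was at 511 and 1005 CPM against 443 and 472. Hbb-bs pointed different ways, at 3569 and 18007 CPM with C1q against 5261 and 14650. Among cells with at most 1 Klf1 UMI (17 and 11 with C1q, 28 and 39 others) the ratio was 46.1 and 110 for Hmox1, 9.87 and 13.6 for Blvrb and 2.36 and 3.16 for Blvra. For Prdx2 the ratio was then 1.47 (1.14 to 1.90) and 1.79 (1.38 to 2.31). The Hmox1 of the others was then 36.8 and 20 CPM. In the 8 Mo/KC cells of library 2 with at least 2 Klf1 UMIs, Hmox1 was at 1689 CPM and Hbb-bs at 54613.

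Along the erythroid subclusters, Ery 1 to Ery 6, the genes took 3 kinds of course by CPM. Against Ery 1, Prdx2, Cat and Gpx1 were higher in Ery 6 and Prdx1, Sod1 and Blvra were lower, that is 3 higher genes where 6.65% of the 3548 genes tested were higher and 3 lower genes where 75.4% of all were lower. Gpx4, Blvrb and Glrx5 were neither, and Hmox1 was under the floor. Ery 6 cells held a mean of 4674 and 8424 UMIs against 26329 and 25864 in Ery 1, so the scale decides much of the picture. The median log2 ratio of all genes tested was -2.53 and -3.41 by CPM, -1.29 and -1.23 without globin UMIs and -5.02 and -5.03 by UMIs per cell. The medians of the 9 genes tested were 0.71 and -0.16, 1.95 and 2.03, and -1.79 and -1.77 on these scales.

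**Figure D5:**
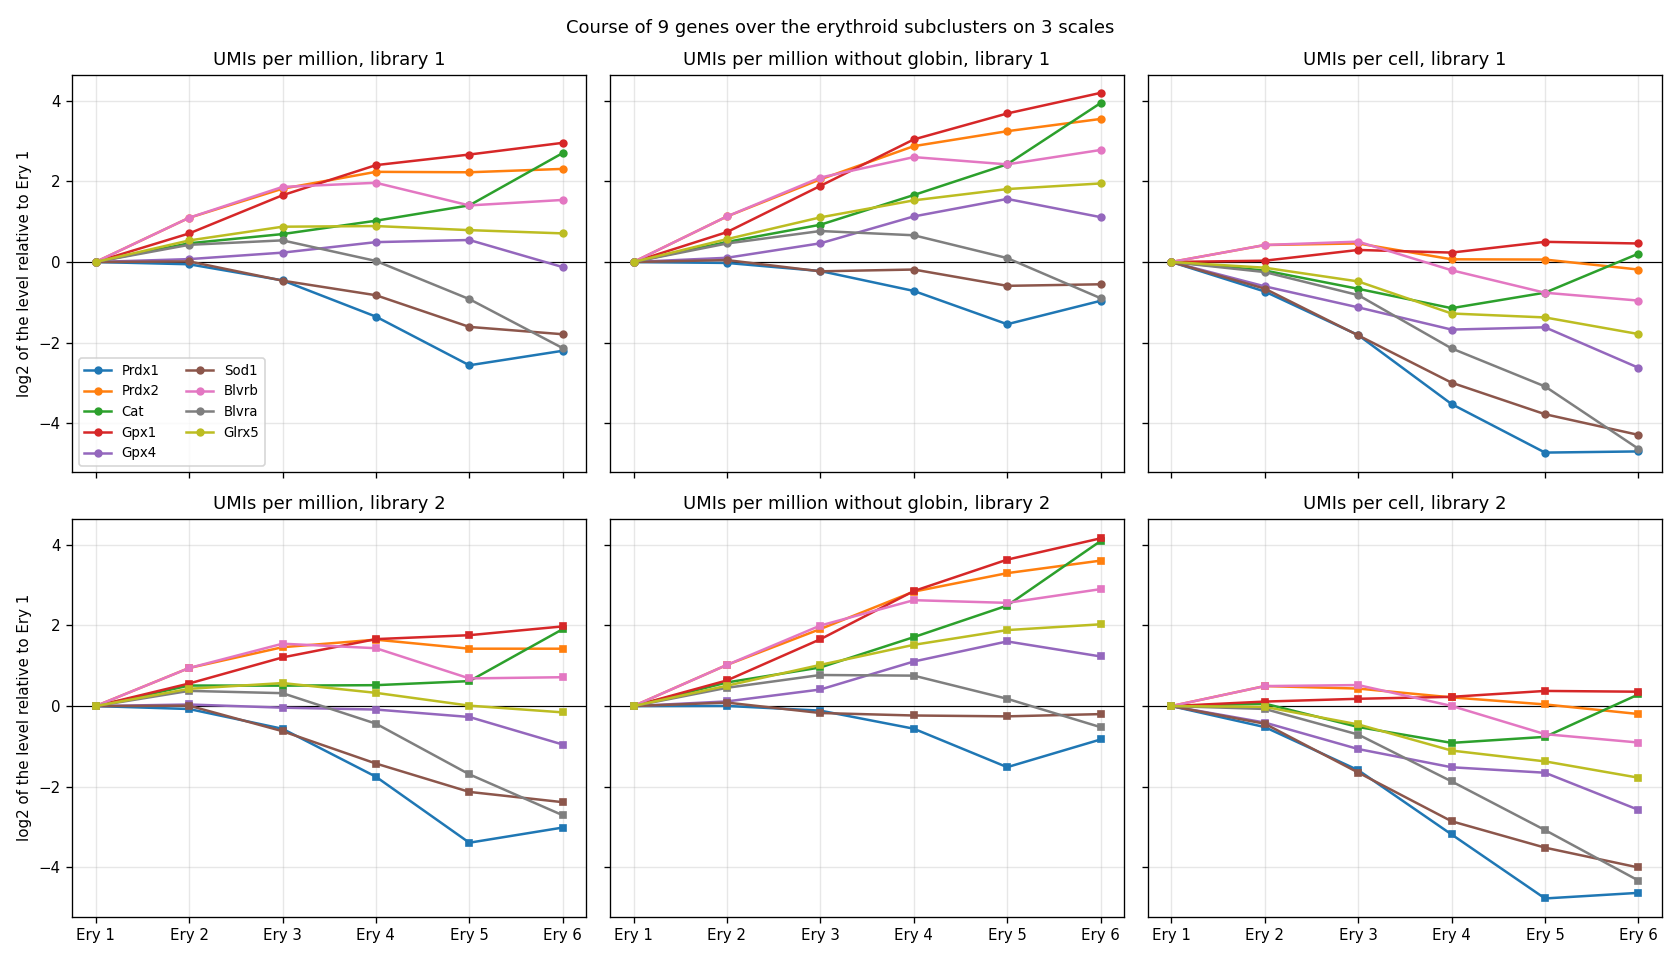
Log2 of the level of 9 genes (Hmox1 left out) relative to Ery 1, in Ery 1 to Ery 6, for each library. The scales are CPM, CPM without globin and UMIs per cell. The values in brackets are CPM, not scaled to Ery 1. Cat stands level from Ery 3 to Ery 5 in library 2 by CPM (82.5, 83.1 and 89.1) and above in Ery 6 (218), and Prdx1 is lowest in Ery 5 in both libraries.

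Gpx1 was at 1594 CPM in Ery 1 and then 2602, 5016, 8412, 10091 and 12338 in Ery 2 to Ery 6 of library 1, and at 1623, 2391, 3744, 5127, 5484 and 6378 in library 2. It was above the preceding subcluster at every step in both libraries. Prdx2 went from 1621 through 3463, 5708, 7625 and 7570 to 8020 CPM in library 1, and from 1548 through 2977, 4255, 4843 and 4148 to 4147 in library 2. By CPM its highest value in library 2 thus stood in Ery 4 and not in Ery 6. Between the lowest and the highest of 10 equal groups of erythroid cells by globin share, Prdx2 went from 1741 to 6954 CPM in library 1 and from 1735 to 3273 in library 2, under 2-fold, so its call is lost on that order. Without globin UMIs Prdx2 instead went from 1756 to 20315 in library 1 and from 1755 to 20798 in library 2 between these groups. On that scale its ratio of Ery 6 to Ery 1 was 11.7 and 12.2, so the course in library 2 depends on the globin load. By UMIs per cell the ratio of Ery 6 to Ery 1 was 1.37 and 1.28 for Gpx1 and 0.878 and 0.873 for Prdx2. All genes tested had a median log2 of -5.02 and -5.03 by UMIs per cell. Per cell, captured Prdx2 mRNA was therefore slightly lower in Ery 6 than in Ery 1, and its higher CPM is a higher share of a smaller total.

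Cat was higher in Ery 6 than in Ery 5. It was at 66.6, 91.9, 108, 135, 176 and 433 CPM in Ery 1 to Ery 6 of library 1. In library 2 it was at 58.0, 82.6, 82.5, 83.1, 89.1 and 218. The ratio of Ery 6 to Ery 1 was 15.3 and 17.0 without globin UMIs but only 1.15 and 1.22 by UMIs per cell. From Ery 5 to Ery 6 the ratio was 2.46 (2.23 to 2.71) and 2.44 (2.22 to 2.69) by CPM, 2.86 and 3.03 without globin and 1.95 and 2.07 by UMIs per cell. It was the only one of the 8 genes above the floor to be counted as higher at this step, where 4.51% of the 1619 genes tested were higher and 21.2% lower, and none of the 8 was counted as lower. With cells thinned to 3600 UMIs, a Cat UMI was seen in 42.3% (37.9 to 46.9) of Ery 5 and 74.1% (71.2 to 76.8) of Ery 6 cells in library 1, and in 29.2% and 53.9% in library 2. Unthinned, the shares were 57.9% and 80.8% in library 1 and 53.7% and 78.8% in library 2. When erythroid cells were instead ordered by their globin share and cut into 10 equal groups, an order that uses none of the 10 genes, Cat was at 70.4 CPM in the lowest group and at 129, 163, 190, 259, 402 and 462 in the 6 highest of library 1. In library 2 it was at 60.6 CPM in the lowest group and at 80.4, 88.4, 110, 144, 204 and 222 in the 6 highest. By CPM the level on this order thus went up over several groups and not at 1 step. Per cell, Cat was lowest in group 5 of the 10, at 0.859 and 0.777 UMIs. It stood at 1.61 and 1.51 UMIs per cell in the lowest globin group and at 2.06 and 1.88 in the highest.

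Prdx1 had the reverse course up to Ery 5, at 710, 683, 518, 278, 121 and 155 CPM in library 1 and 678, 645, 459, 202, 64.9 and 84.2 in library 2. Ery 6 was 4.60-fold and 8.06-fold below Ery 1. From Ery 5 to Ery 6 it stood slightly higher, by 1.28-fold (1.13 to 1.46) and 1.30-fold (1.15 to 1.47), and by 1.02-fold and 1.10-fold per cell. Sod1 was at 122, 123, 88.7, 69.0, 40.1 and 35.3 CPM in library 1 and 127, 128, 82.3, 47.2, 29.0 and 24.3 in library 2, level from Ery 1 to Ery 2 and lower from there on. Blvra was highest in Ery 3 of library 1, at 99.6 CPM, and in Ery 2 of library 2, at 83.8, and ended at 15.6 and 9.89 in Ery 6. Without globin UMIs none of the 3 reached 2-fold in both libraries, so their place among the lower genes depends on the scale. The ratios were then 0.513 and 0.563 for Prdx1, 0.682 and 0.871 for Sod1 and 0.537 and 0.696 for Blvra. By UMIs per cell all 3 stayed lower, at 0.0386 and 0.0404, 0.0513 and 0.0625, and 0.0404 and 0.0499. All genes tested had a median log2 ratio of -5.02 and -5.03 on that last scale.

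By CPM, Blvrb, Glrx5 and Gpx4 were highest between Ery 1 and Ery 6, Gpx4 of library 2 by little. Blvrb was at 831, 1776, 3018, 3238, 2195 and 2412 CPM in library 1 and 819, 1575, 2392, 2214, 1318 and 1345 in library 2, highest in Ery 4 and Ery 3 respectively. Glrx5 was at 964, 1395, 1767, 1787, 1666 and 1575 CPM in library 1 and 876, 1178, 1300, 1099, 882 and 786 in library 2, with the same pair of peaks. Gpx4 was at 953, 1001, 1118, 1340, 1390 and 873 CPM in library 1 and 893, 918, 869, 841, 740 and 461 in library 2, and from Ery 5 to Ery 6 its ratio was 0.628 and 0.623. Without globin UMIs the ratio of Ery 6 to Ery 1 was 6.85 and 7.45 for Blvrb, 3.85 and 4.07 for Glrx5 and 2.16 and 2.35 for Gpx4, and all 3 would be counted as higher there. By UMIs per cell the ratio was 0.515 and 0.535, 0.290 and 0.292, and 0.163 and 0.168. Over the 10 groups by globin share, Blvrb and Glrx5 without globin UMIs were highest in the group of highest globin share. They stood there at 5719 and 6270 for Blvrb and at 4087 and 4087 for Glrx5, so their middle peak depends on the scale. By UMIs per cell Blvrb was again highest inside this order, at 28.7 in group 3 of library 1 and 32.1 in group 2 of library 2. It stood at 20.6 and 23.4 per cell in the lowest group and at 8.74 and 8.38 in the highest. Glrx5 was highest per cell in the lowest group, at 22.7 and 23.4.

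The other genes of these pathways gave a mixed picture, with lists that were drawn up when earlier results of these data were known. Of the peroxiredoxin and thioredoxin list, 11 of 12 genes passed the floor against Mo/KC. Prdx3, the mitochondrial peroxiredoxin, at 667 and 420 CPM against 150 and 150, and the mitochondrial Txnrd2, at 122 and 96.1 against 30.9 and 35.0, were higher in erythroid cells. Prdx4, Prdx5 and Glrx were lower, Prdx5 by 13-fold and 12.8-fold and the cytosolic Glrx by 35.6-fold and 33.4-fold. The median log2 ratio of the list was -0.05 and -0.61, near that of all genes tested. Against Hepa, 10 were tested, with Prdx3 (3.44-fold and 2.21-fold) and Txnrd2 (4.60-fold and 2.29-fold) higher and Prdx4 (4.71-fold and 4.99-fold) and Prdx5 (2.06-fold and 2.41-fold) lower. In Ery 6 against Ery 1, 8 of 10 were lower and 0 higher, namely Prdx4, Prdx5, Prdx6, Txn1, Txn2, Txnrd1, Glrx2 and Glrx3, with Prdx4 18-fold and 49.6-fold and Glrx3 21.3-fold and 37.5-fold lower. Of all genes tested 75.4% were lower in this comparison.

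For this list and those after it, the shares of all genes tested to set beside the counts are 6.9% higher and 24.4% lower against Mo/KC, 6.64% and 18.1% against Hepa, and 6.65% and 75.4% in Ery 6 against Ery 1. Of the glutathione and superoxide list, 6 of 12 genes were tested against Mo/KC. Gclm and Gss, enzymes of glutathione synthesis, were higher, Gclm by 5.83-fold and 3.55-fold and Gss by 4.83-fold and 3.86-fold. Gss was at 64.0 and 43.6 CPM against 13.3 and 11.3, so its ratio rests on few Mo/KC UMIs. Gsr, Gpx3 and Mgst1 were lower, the secreted Gpx3 at 1.27 and 0.916 CPM against 276 and 233 in Mo/KC and Mgst1 at 1.13 and 0.486 against 88.4 and 67.8. Against Hepa, 5 were tested, Gclm being higher (3.46-fold and 2.19-fold) and Mgst1 lower (151-fold and 244-fold). In Ery 6 against Ery 1, 4 were tested, Gss being higher (4.22-fold and 2.27-fold) and Gsr (2.17-fold and 3.87-fold) and the mitochondrial Sod2 (3.44-fold and 6.56-fold) lower. The list's median log2 ratio was -0.20 and -0.87 against Mo/KC, 0.21 and -0.25 against Hepa and 0.05 and -0.81 in Ery 6 against Ery 1.

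No gene listed for the supply of NADPH, which the thioredoxin and glutathione systems use, was counted as higher in any comparison. Of 6 genes tested against Mo/KC, 0 were higher and 4 lower, where 24.4% of all genes were lower, namely G6pdx, Pgd, Idh1 and Idh2, with Idh1 at 4.64 and 2.28 CPM against 91.4 and 85.8 and Pgd at 55.3 and 40.4 against 367 and 356. The median log2 ratio of this list was -2.07 and -2.40, beside -0.17 and -0.62 over all genes tested. Against Hepa the list's median was 0.04 and -0.78, beside -0.03 and -0.46 over all. In Ery 6 against Ery 1 it was -1.66 and -2.38, beside -2.53 and -3.41 over all. Against Hepa, Idh1 (25.2-fold and 34.1-fold) and Idh2 (4.09-fold and 4.77-fold) were lower of 6 tested. In Ery 6 against Ery 1, where 75.4% of all genes were lower, Pgd, Idh2 and Tkt were lower of 5 tested, Idh2 by 21.6-fold and 51.4-fold and Pgd by 8.81-fold and 12.7-fold.

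Of the heme handling list, Flvcr1 was not found by symbol, and 3 genes were tested against Mo/KC. Hmox2, the constitutive heme oxygenase, was at 37.7 and 28.4 CPM in erythroid cells against 161 and 143 in Mo/KC, and Hp, which encodes the hemoglobin-binding haptoglobin, was 206-fold and 272-fold lower. Against Hepa, Slc48a1, a heme transporter, was higher (4.44-fold and 2.06-fold) and Hpx, the heme-binding hemopexin of plasma, lower (1344-fold and 1775-fold) of 3 tested. In Ery 6 Hmox2 was 9.96-fold and 24.4-fold below Ery 1, 1 of 2 tested where 75.4% of all genes were lower. Of the regulators, 3 were tested against Mo/KC and against Hepa with 0 called in either. In Ery 6 against Ery 1, 4 were tested, Mafk being higher (4.66-fold and 2.09-fold) and Nfe2l2 (2.96-fold and 5.82-fold) and its inhibitor Keap1 (6.07-fold and 13-fold) lower.

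Of iron-sulfur cluster assembly, the pathway of Glrx5, Isca1 (7.06-fold and 5.58-fold) and Bola3 (4.35-fold and 2.36-fold) were higher in erythroid cells than in Mo/KC. Isca1 was at 146 and 44.2 CPM in erythroid cells against 20.6 and 7.91 in Mo/KC. Its level thus differed between the libraries, and its ratio rests on few Mo/KC UMIs. Against Hepa, 7 of 9 genes were tested, Isca1 (3.73-fold and 2.38-fold) and Hscb (2.63-fold and 2.30-fold) being higher and 0 lower, where 6.64% and 18.1% of all genes were. In Ery 6 against Ery 1, where 75.4% of all genes were lower, Nfs1 was lower (4.32-fold and 7.79-fold). Glrx5 was neither there, and so were Isca1, Hscb and Bola3 of this list.

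The genes whose levels ran most like each of the 10 were sought among 4415 genes by the Pearson correlation of log2(CPM + 10) over 13 groups, the lower of the libraries being given as a description, since the groups share libraries and the free RNA in them. For Prdx2 these were Car2, carbonic anhydrase 2 (0.99), Rhag (0.99) and Urod, an enzyme of heme synthesis (0.98). For Glrx5 they were Klf1 (0.98), Alad, an enzyme of heme synthesis (0.97), and Arrb1 (0.96), and for Blvrb Cldn13 (0.97) and Add2 (0.97). For Hmox1 they were Ifi204 (0.89), Lgmn, a lysosomal protease (0.89), and P2ry6 (0.88). Gpx1 ran most like Fryl, Slc22a4 and Trak2 (each 0.91), and Slc31a1 and Arl1 (each 0.92) were among the genes most like Prdx1. Sod1 ran most like Fabp5 (0.95), Mrpl52 (0.91) and Arl5a (0.91), and Blvra most like Rpa1 (0.93), Mis18a (0.91) and Tmem128 (0.90). The likeness was weakest for Cat, with Tbcel (0.86), Fbxo30 (0.85) and E130309D14Rik (0.84), and for Gpx4, with Parvb (0.83), Smap1 (0.81) and Ndrg3 (0.76).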

How the data were processed

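Droplet libraries of 1 sorted E12.5 liver were prepared as 2 technical replicates. According to the labels, the authors used bcl2fastq 2, Cell Ranger 2.1.1 on mm10 and Seurat 3.2.0 (the matrix header of library 1 names version 3.0.0 and that of library 2 none), left out cells with under 200 genes and annotated clusters by hand. The series text speaks of 2 suspensions and the protocol of one. The deposited values are raw UMI counts per gene and cell. Counts of cells in the deposited cell table, joined by barcode, were summed per group and library. Intervals are exact 95% intervals (Poisson, Clopper-Pearson, or conditional binomial for ratios) and cover counting error only. A gene was called at 2-fold in both libraries with a mean of 20 CPM. Cells were thinned to 3600 UMIs (seed 1), and shallower cells were left out. Near copies were sought in the last 500 bases of GENCODE transcripts, at 95% identity over 100 bases. Doublets were gated out before encapsulation, which does not reach those formed in droplets. As an alternative, the top 4% of cells by scrublet score were dropped, 0 of them Mo/KC and 0 Hepa. The 10 genes, the lists and the alternatives were chosen with earlier results of these data known. The genes named are the 10, all called list genes (values for the 2 most extreme ratios per direction, and some others), the check markers and the 3 genes most like each of the 10. Splits by Klf1 were chosen after seeing the data. The ratio scripts were tested on simulated data. Sums and intervals were made with scipy 1.17.1, numpy 2.4.6 and pandas 2.3.3 under Python 3.11.15, doublet scores with scanpy 1.11.5 and plots with matplotlib 3.10.9. Some genes of the lists and markers, and counts that need them, are not reported here.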

Additional observations from a re-analysis of the deposited data

How the results depend on the processing

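No paired analysis was possible because the libraries are technical replicates of 1 liver in 1 condition and no result comes from a test. Each library alone called 4 to 5 genes higher and 2 to 3 lower in erythroid cells than in Mo/KC, 3 to 4 higher and 2 to 2 lower than in Hepa, and 3 to 4 higher and 3 to 3 lower in Ery 6 than in Ery 1. The scale mattered most along the subclusters: without globin UMIs 6 genes were higher and 0 lower in Ery 6, and by UMIs per cell 0 were higher and 5 lower. Against Hepa, 0 were higher by UMIs per cell. There 1 was lower without globin UMIs, by the mean of each cell's own CPM, and with only the Hepa cells of low globin share. At a 3-fold threshold 1 gene was lower than in Mo/KC, and 1 was higher and 1 lower than in Hepa. With Ery cells in place of all erythroid cells, 1 was lower than in Mo/KC, and 0 were higher and 1 lower than in Hepa. With Ery cells the log2 ratio of Gpx1 to Mo/KC turned to -0.063, and by UMIs per cell that of Prdx2 in Ery 6 against Ery 1 turned to -0.19. The other 84 counts of genes stayed within 1.5 times of those reported. The call of Gpx1 against Mo/KC, at 2.00-fold in library 2, was also lost under UMIs per cell, a stricter cell filter, the scrublet filter, a 3-fold threshold and equal weights for Ery 1 to Ery 6. With 1 liver, the spread between animals is unknown, and Mo/KC and Hepa rest on 31 to 58 cells a library.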

Other observations

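In EryP of library 1, 57 Hmox1 UMIs lay in 9 of 170 cells, at 2 to 14 UMIs each, while library 2 held 2 UMIs in 2 of 118 cells. The 9 cells held 0 C1q UMIs and a median of 54.9% of their UMIs from Hbb-y, the embryonic globin, beside 55.4% in the other EryP cells of that library. The level was 59.5 and 2.07 CPM, so library 1 decides it, and the cause was not tested.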
